A study of Mus musculus with 21 samples.

Results

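DNase-hypersensitive sites, short stretches of chromatin that DNase I cuts readily and that mark active promoters and enhancers, were described at 6 genes for growth factor receptor tyrosine kinases in mouse liver: Egfr, Erbb3, Insr, Igf1r, Met and Fgfr4. A site belonged to a gene if it overlapped the GENCODE vM1 gene body on the mm9 genome or lay within 10 kb of it. Peaks of 18 per-liver lists that shared at least 1 bp were merged into 68362 regions, and 71 of these met the rule: 18 at Egfr, 4 at Erbb3, 20 at Insr, 7 at Igf1r, 18 at Met and 4 at Fgfr4. Sites are named by the distance of their summit from the start of the gene, minus being upstream.

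The livers came from untreated CD-1 (ICR) male mice with an intact pituitary, 8 to 10 weeks of age. Each liver is from its own animal, and none was given hormone. They were classed by the DNA-binding activity of STAT5 in a protein extract of the same liver, measured in a gel shift assay, as STAT5_High (n = 8) or STAT5_Low (n = 10). A further 3 livers titled as outliers were not analysed here. The comparison of the classes asks how open chromatin at these genes differs between livers whose extracts had high or low STAT5 DNA-binding activity in that assay. The class is a single reading in each animal, so it does not give the hormone history of the liver. Label prefixes divide the livers into 3 collections, G74A (2 STAT5_High, 5 STAT5_Low), G92 (3 and 2) and G99 (3 and 3), and what these prefixes stand for is not given.

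Receptor tyrosine kinases span the cell membrane, bind a growth factor outside the cell and then phosphorylate themselves and their partners inside it. In liver, EGFR and MET carry the growth signals of EGF-family ligands and of hepatocyte growth factor, and both are known for their part in regeneration. The insulin receptor governs glucose and lipid metabolism, ERBB3 binds neuregulins and signals through its partners, and FGFR4 receives the intestinal hormone FGF15 and restrains bile acid synthesis. IGF1R binds IGF-1, which the liver itself makes under growth hormone. STAT5 is the transcription factor that growth hormone activates in hepatocytes. In male rodents, whose growth hormone comes in pulses, its activity rises and falls with them.

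The site on which the comparison turns lay 9.7 kb upstream of Egfr, and a neighbour lay at −7.3 kb. The sequences below are 300 bases around the summit, on the + strand of the mm9 reference (NCBIM37), and are shown because Egfr −9.7 kb passed the test of pileup and the others are 4 of the 5 sites with an unadjusted p below 0.05 for presence. Capitals mark the letters TTCNNNGAA, to which STAT5 dimers are known to bind, or, at Met +14.6 kb, the FOXA pattern TGTTTAC. At Insr +52.0 kb neither pattern was found in the window. The remaining site with such a p, Egfr +22.9 kb, is not shown, and its window also held neither pattern.
Egfr −9.7 kb, chr11:16642373-16642672: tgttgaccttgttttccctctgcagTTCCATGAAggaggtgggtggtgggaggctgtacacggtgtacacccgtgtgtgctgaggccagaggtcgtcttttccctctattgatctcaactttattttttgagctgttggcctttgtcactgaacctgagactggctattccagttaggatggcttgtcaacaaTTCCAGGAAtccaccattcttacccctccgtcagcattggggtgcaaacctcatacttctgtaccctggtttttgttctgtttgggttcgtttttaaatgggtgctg
Insr +9.2 kb, chr8:3270257-3270556: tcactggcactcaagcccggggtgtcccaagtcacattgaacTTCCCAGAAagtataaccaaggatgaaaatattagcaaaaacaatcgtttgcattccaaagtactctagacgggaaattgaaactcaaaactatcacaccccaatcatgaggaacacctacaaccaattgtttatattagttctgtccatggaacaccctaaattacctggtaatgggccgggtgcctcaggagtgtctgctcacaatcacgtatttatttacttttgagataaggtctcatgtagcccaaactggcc
Insr +52.0 kb, chr8:3227454-3227753: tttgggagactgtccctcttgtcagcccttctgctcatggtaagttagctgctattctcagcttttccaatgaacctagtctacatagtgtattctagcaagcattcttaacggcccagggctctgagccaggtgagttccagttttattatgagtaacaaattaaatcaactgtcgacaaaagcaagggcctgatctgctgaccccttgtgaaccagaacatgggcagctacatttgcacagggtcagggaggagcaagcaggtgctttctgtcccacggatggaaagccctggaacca
Met +83.2 kb, chr6:17496807-17497106: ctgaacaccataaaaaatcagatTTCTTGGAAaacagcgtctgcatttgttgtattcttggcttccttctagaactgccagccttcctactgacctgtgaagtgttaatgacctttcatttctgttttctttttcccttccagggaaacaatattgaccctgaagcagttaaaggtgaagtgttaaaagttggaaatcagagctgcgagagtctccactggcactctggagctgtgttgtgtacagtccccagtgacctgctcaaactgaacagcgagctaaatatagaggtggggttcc
Met +14.6 kb, chr6:17428275-17428574: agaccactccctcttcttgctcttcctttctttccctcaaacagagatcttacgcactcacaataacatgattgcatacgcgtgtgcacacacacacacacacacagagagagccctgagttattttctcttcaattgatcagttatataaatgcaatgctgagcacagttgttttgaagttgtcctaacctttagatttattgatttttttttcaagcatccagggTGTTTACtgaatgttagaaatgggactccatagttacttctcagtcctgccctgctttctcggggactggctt

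The level of a site is given as scaled pileup, the number of extended tags over the summit of its peak per 1000000 tags of the library. The file headers gave 13.8 to 17.5 M tags (M, 1000000) for STAT5_High livers and 12.9 to 23.4 M for STAT5_Low livers. The list of STAT5_High replicate 4 stood apart as the shortest, with 18673 peaks, against 29626 to 45144 in the other 17 livers, and it held the fewest sites of the 6 genes, 18 of 71. Every other STAT5_High liver had 35 to 46 of the sites, and STAT5_Low livers had 26 to 47. At the 10 sites with a peak in every liver, replicate 4 had the lowest scaled pileup of the STAT5_High livers at all 10. The tissue label was checked at the starts of marker genes. A peak was present in all 18 livers at 6 of 7 hepatocyte genes, at 0 of 5 Kupffer cell genes, 0 of 4 lymphocyte genes, 0 of 5 stellate cell genes, 1 of 5 endothelial genes (Stab2) and 1 of 5 cholangiocyte genes (Sox9). Of the other non-hepatocyte markers, Reln (stellate cells) had a peak in 7 STAT5_High and 10 STAT5_Low livers, Spp1 (cholangiocytes) in 6 and 8, Clec4g (endothelium) in 3 and 5, Kdr (endothelium) in 2 and 2, Ptprc (lymphocytes) in 1 and 1 and Pecam1 (endothelium) in 0 and 1. The part of these cells in the results was not tested. The seventh hepatocyte gene, Serpina1a, a member of a cluster of near-identical genes, had no peak in any liver.

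Of the 71 sites, 10 had a peak in all 18 livers, which is 14.1% against 17.2% of all regions. A peak in 1 liver was found for 15 sites, 21.1% against 21.6% of all regions, with a scaled pileup of 0.604 to 3.76 (median 1.01). By place, 54 summits lay in introns, 7 upstream, 6 downstream, 2 in coding exons and 2 in untranslated exons. Within 1 kb of an annotated transcription start of their own receptor gene lay 9 sites. All 71 sites had a peak in at least one of the pooled lists that the authors called on the combined tags of each class, 62 in both, 3 in STAT5_High and 6 in STAT5_Low. Density was taken over the gene body plus 10 kb on each side. Igf1r, the longest gene at 273.8 kb, had the lowest, 2.38 sites per 100 kb, and Met and Insr had the highest, 13.8 and 13.4.

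**Figure D1:**
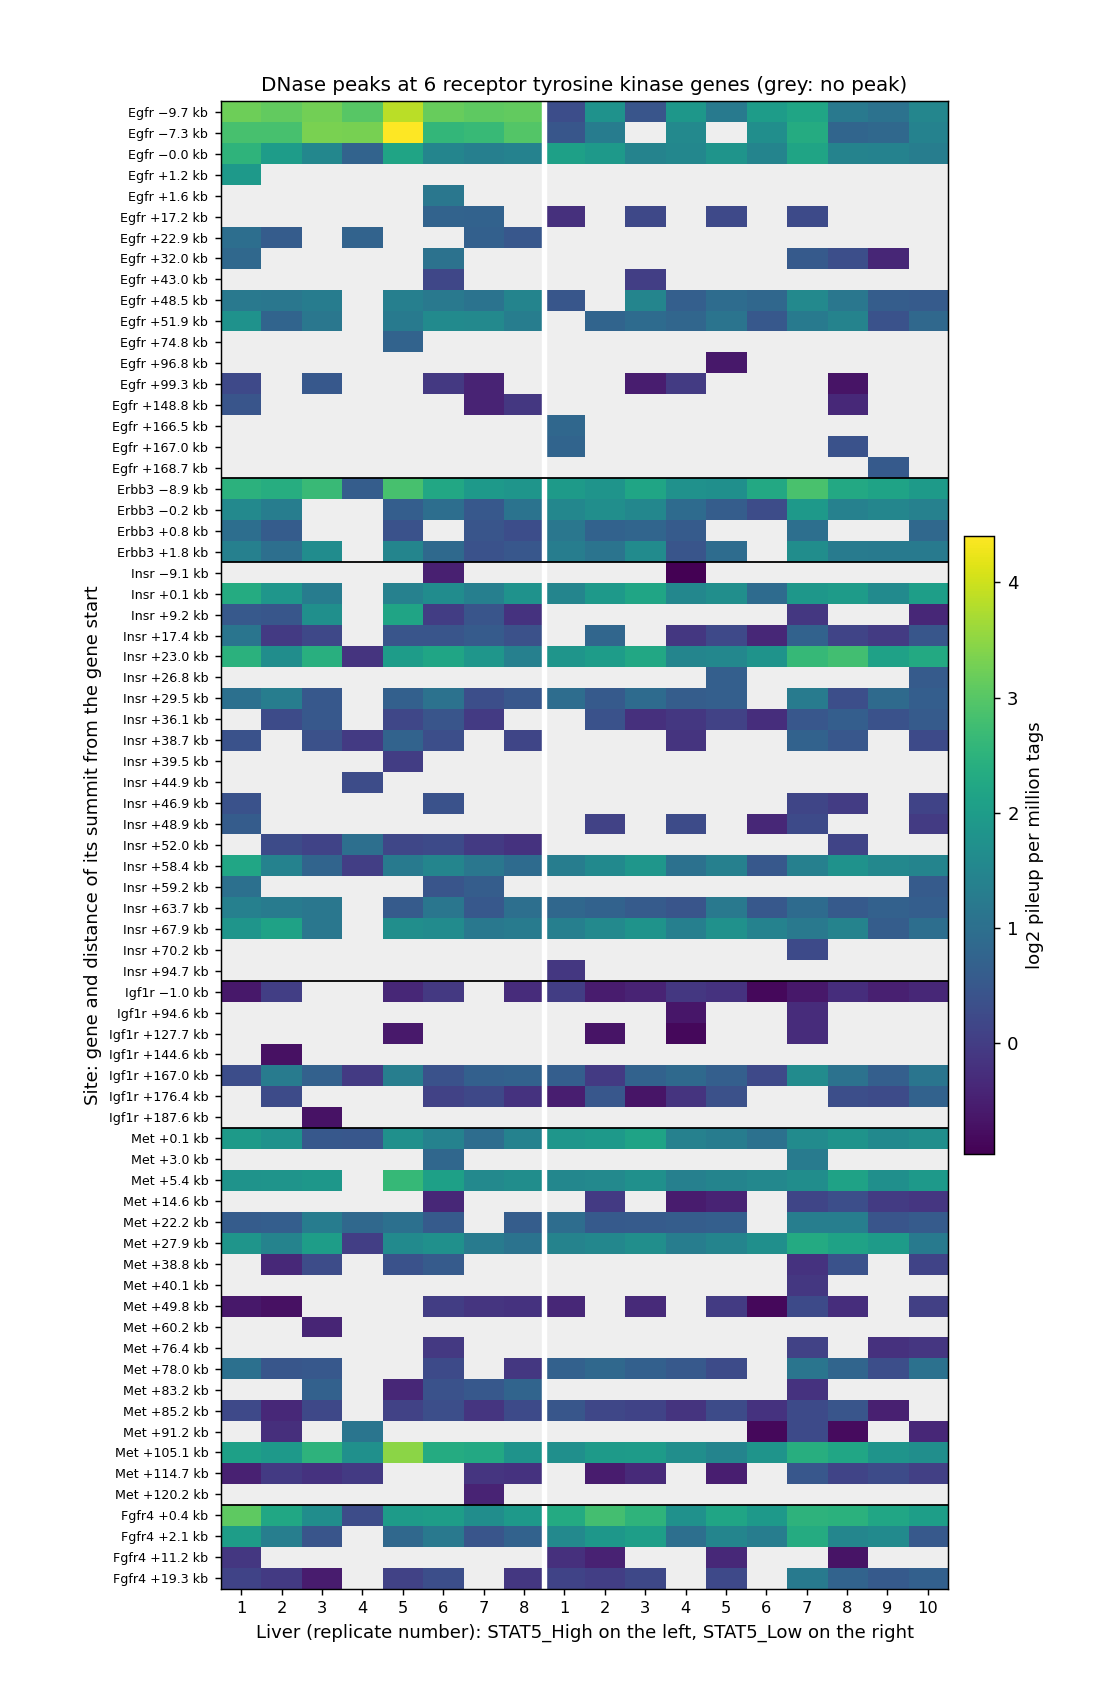
Map of the 71 sites (rows, by gene and distance from its start) in the 8 STAT5_High and 10 STAT5_Low livers (columns); colour is log2 scaled pileup (tags per 1000000) and grey means no peak in that list. The rows of Egfr −9.7 kb and −7.3 kb are brighter in STAT5_High, and STAT5_High replicate 4 has peaks at 18 sites.

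Whether the pileup differed between the classes was tested with limma over all 11748 regions with a peak in every liver, and adjusted over all of them by the Benjamini-Hochberg method with a threshold of 0.05. Over all regions 453 were higher in STAT5_High, 3.86%, and 28 were lower, 0.238%. Without STAT5_High replicate 4, 756 regions were higher. Regions called lower were 90 without STAT5_High replicate 1 and 11 without STAT5_High replicate 3, and 15 to 17 without STAT5_High replicate 7 or STAT5_Low replicates 2, 3 or 8. Pileup not divided by tags gave 266 higher and 180 lower. Of the 10 member sites, 1 was higher and 0 were lower, and the classes did not overlap at 1 of the 10, against 0.826% of all regions. The median difference in scaled pileup of the 10 sites was −0.16 on the log2 scale and that of all regions was −0.17.

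The site called was Egfr −9.7 kb (chr11:16642028-16643023), upstream of the gene for the EGF receptor. In STAT5_High its scaled pileup was 8.09 in the lowest liver, 8.82 at the median and 14.4 in the highest. In STAT5_Low it was 1.24 in the lowest liver, 2.61 at the median and 4.54 in the highest. Every STAT5_High liver lay above every STAT5_Low liver. The means were 9.51 ± 2.05 (SD, n = 8) and 2.79 ± 1.11 (SD, n = 10), a 3.64-fold difference in the fitted model (log2 1.86, SE 0.233, limma adjusted p = 8.793e-08), and the site ranked 18 of 11748 by p. In bulk liver, fewer cells with the site open and less opening per cell cannot be told apart.

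The same site held the first place among the 10 sites by median pileup in STAT5_High and place 9 in STAT5_Low. Within collection G74A the means were 8.95 and 2.41 (log2 2.03, limma adjusted p = 0.0009095). Within G99 they were 8.70 and 2.41 (log2 1.86, limma adjusted p = 4.829e-09). Within G92 they were 10.7 and 4.29 (log2 1.27, limma adjusted p = 0.98), from 3 livers against 2. The direction was the same in each collection. Fold enrichment, the pileup over the local background that the peak caller estimated in the same library, was 7.58 to 10.1 (median 7.80) in STAT5_High and 3.40 to 7.76 (median 5.73) in STAT5_Low, so on this measure the classes overlapped.

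Egfr −7.3 kb lay between that region and the start of the gene. It had a peak in 8 of 8 STAT5_High livers and in 8 of 10 STAT5_Low livers, replicates 3 and 5 having none. It was therefore outside the main test, and it is named because it passed when regions with a peak in 14 or more livers were tested. In STAT5_High its scaled pileup was 6.01 in the lowest liver, 7.51 at the median and 21.2 in the highest. In the 8 STAT5_Low livers with a peak it was 1.40 in the lowest, 2.56 at the median and 5.07 in the highest. These values did not overlap either, but this leaves out the STAT5_Low livers without a peak. The share of regions without overlap in that test was not counted. The livers without a peak entered the fit as missing (log2 1.82, SE 0.255, limma adjusted p = 2.76e-06). In that wider test 923 of 25264 regions were higher in STAT5_High, 3.65%, and 2 of 28 member sites were, both at Egfr. Within collections the ranges were 7.17 to 7.18 against 1.40 to 2.95 in G74A, 9.95 to 21.2 against 3.21 to 5.07 in G92 and 6.01 to 7.84 against 1.73 to 2.69 in G99.

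The start of Egfr had a peak in every liver, and the classes overlapped there. Its scaled pileup was 1.67 to 5.79 (median 2.83) in STAT5_High and 2.48 to 4.48 (median 2.82) in STAT5_Low, with a log2 difference of −0.01 (SE 0.223, limma adjusted p = 0.988). The difference lay on both sides of 0 within collections, and it turned to 0.11 when each liver was centred on its median region and to 0.12 without STAT5_High replicate 4. Fold enrichment at the start was 4.09 to 5.74 in STAT5_High and 4.83 to 8.56 in STAT5_Low.

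**Figure D2:**
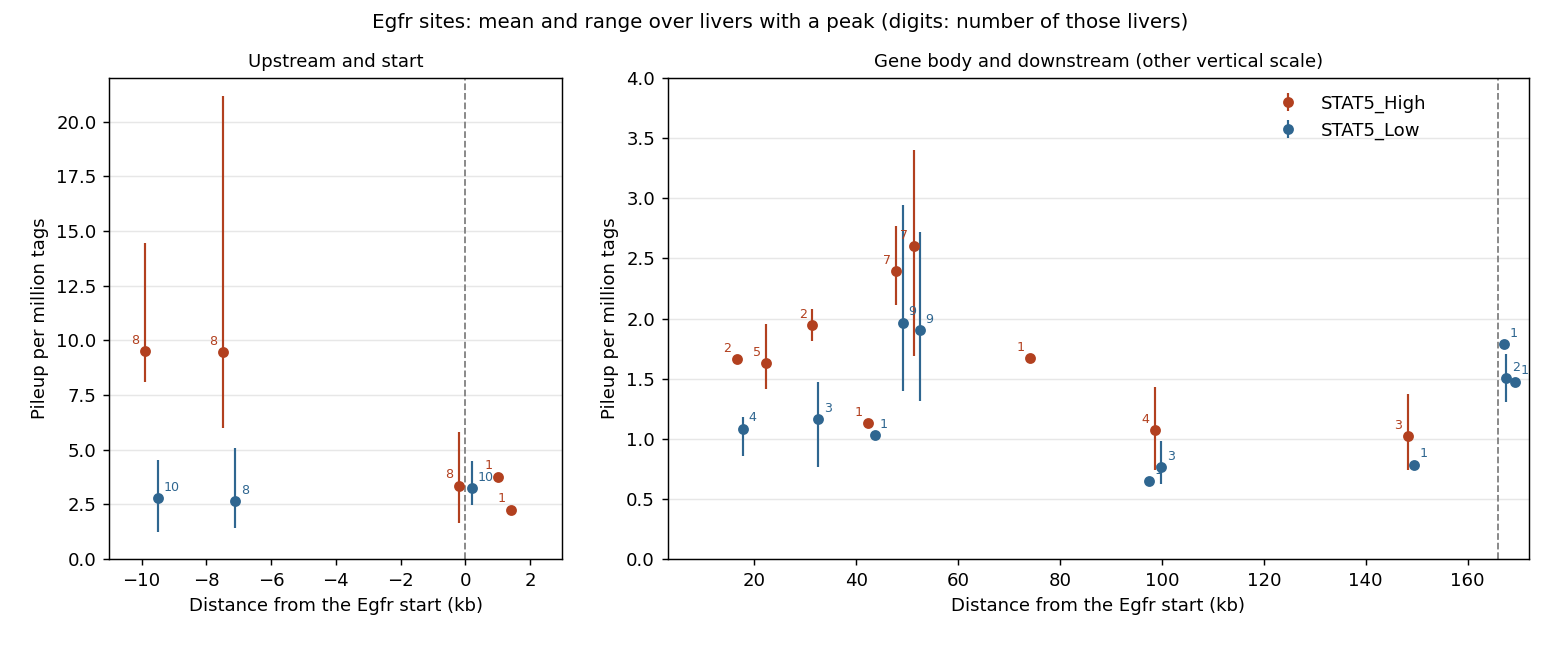
Scaled pileup (tags per 1000000) at the 18 Egfr sites by distance from the gene start (kb); points are the mean over livers with a peak, bars the lowest and highest liver, digits the number of livers, and the dashed lines the start and end of the gene. The STAT5_High and STAT5_Low points are drawn slightly apart. At −9.7 kb and −7.3 kb the STAT5_High bars stand above the STAT5_Low bars, and at the start they overlap.

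Inside Egfr, 12 sites lay in introns, of which those at +48.5 kb and +51.9 kb had a peak in 7 STAT5_High and 9 STAT5_Low livers each. At +48.5 kb the scaled pileup was 2.11 to 2.77 in STAT5_High and 1.40 to 2.95 in STAT5_Low. At +51.9 kb it was 1.69 to 3.40 and 1.31 to 2.72. The classes overlapped at both. In the test of regions with a peak in 14 or more livers, the log2 differences were 0.33 (SE 0.207, limma adjusted p = 0.505) and 0.45 (SE 0.21, limma adjusted p = 0.335). The Egfr site with the smallest p for presence was at +22.9 kb (chr11:16674881-16675292), with a peak in 5 STAT5_High livers and in no STAT5_Low liver. Its scaled pileup where called was 1.41 to 1.95. Fisher's exact test gave p = 0.006536, which did not pass adjustment over all regions tested (adjusted p = 0.137). A peak in 5 livers can give no smaller p, so the test could not call this site.

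Downstream of Egfr, 3 sites at +166.5 kb, +167.0 kb and +168.7 kb had a peak in 1, 2 and 1 STAT5_Low livers and in no STAT5_High liver. The member nearest to the 10 kb limit on the upstream side was Egfr −9.7 kb itself, 9.2 kb from the gene body. The next region beyond it was 14.5 kb from the gene body and had a peak in 1 STAT5_High liver, with a scaled pileup of 1.80. At the other genes, the closest case was Met +120.2 kb, which lay 10.0 kb from the gene body with a peak in 1 STAT5_High liver. The next region beyond it, at 15.4 kb, had a peak in 3 STAT5_High and 10 STAT5_Low livers.

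Erbb3, the neuregulin receptor, had 4 sites, 3 of them near its start. The highest lay 8.9 kb upstream (chr10:128035208-128036042). Its scaled pileup was 1.54 in the lowest, 4.97 at the median and 7.16 in the highest STAT5_High liver, and 3.29, 4.15 and 7.31 in STAT5_Low. The classes overlapped, with a log2 difference of 0.03 (SE 0.236, limma adjusted p = 0.945). That sign turned when collection was a covariate (−0.01) or pileup was not divided by tags (−0.16). The lowest STAT5_High value was that of replicate 4. At the start, −0.2 kb, 6 STAT5_High livers had a scaled pileup of 1.43 to 2.97 and 10 STAT5_Low livers had 1.22 to 3.77. The site at +0.8 kb was the Erbb3 site tested for presence, with a peak in 5 and 6 livers (Fisher's exact test p = 1).

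Insr, the insulin receptor gene, had the most sites, 18 of its 20 in introns. Its start, at +0.1 kb, had a peak in 17 livers, STAT5_High replicate 4 being without one, with a scaled pileup of 2.45 to 5.07 in STAT5_High and 1.88 to 4.58 in STAT5_Low. The strongest Insr site lay in an intron at +23.0 kb (chr8:3256069-3256984). Its scaled pileup was 0.899 in the lowest, 3.80 at the median and 5.50 in the highest STAT5_High liver, and 2.78, 4.17 and 6.85 in STAT5_Low. The classes overlapped (log2 −0.34, SE 0.256, limma adjusted p = 0.534), and without STAT5_High replicate 4 the difference was −0.07. A second site present in every liver, at +58.4 kb, lay inside the gene and had 22 CpG in 300 bases against a median of 3 over the 71 sites. Its median scaled pileup was 2.31 and 2.67 (log2 −0.23, SE 0.231, limma adjusted p = 0.618), and the sign turned to 0.13 when the peaks within the region were summed. It was −0.07 without STAT5_High replicate 4 and −0.38 without STAT5_High replicate 1. A further 5 intronic Insr sites, at +17.4, +29.5, +36.1, +63.7 and +67.9 kb, had a peak in 14 to 17 livers, with log2 differences of 0.01 to 0.29 and none called (smallest limma adjusted p = 0.527).

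Presence was tested with Fisher's exact test on the regions with a peak in 5 to 13 of the 18 livers. Of 15631 such regions, 174 were called in either direction, 1.11%, and of the 18 member sites in the test 0 were. At an unadjusted p below 0.05, 4 member sites were more often present in STAT5_High and 1 in STAT5_Low, and over all regions 940 were more often present in STAT5_High and 1265 in STAT5_Low, together 14.1%. Stratified by collection, the exact test called 0 of all regions, and the McNemar test on replicate numbers also called 0. The few livers per collection and the 8 pairs of replicate numbers limit how small p can be in these tests. Their 0 counts therefore say little about the calls of the main test. The largest unadjusted p among the regions called was 0.000411. No split of a peak in 5, 6, 12 or 13 livers gives a p that small. Member sites with those numbers of livers could therefore not be called. Of the 18 member sites, 9 had a peak in a larger share of STAT5_High livers and 9 in a smaller one.

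The smallest p among the members was at Insr +52.0 kb (chr8:3227331-3227804), an intronic site with a peak in 7 STAT5_High livers and 1 STAT5_Low liver (Fisher's exact test p = 0.002879, adjusted p = 0.0996). Where called, its scaled pileup was 0.884 to 1.99 in STAT5_High and 1.10 in the STAT5_Low liver. The site passed without STAT5_High replicate 1, the liver of that class with no peak (adjusted p = 0.0342, Fisher's exact test), and without STAT5_Low replicate 8, the liver of that class with a peak (adjusted p = 0.0318, Fisher's exact test). Each of these settings left out the liver that went against the difference between the classes. Of 23 alternatives, 21 did not call the site. The difference in share of livers with a peak fell to 52.5 percentage points at the lowest, against 77.5 in the main test. In the pooled lists the scaled pileup of the site was 1.03 and 0.639. In collections G74A, G92 and G99, STAT5_High livers had the peak in 1 of 2, 3 of 3 and 3 of 3, and STAT5_Low livers in 0 of 5, 0 of 2 and 1 of 3.

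Insr +9.2 kb (chr8:3270093-3270729), also intronic, had a peak in 7 STAT5_High and 2 STAT5_Low livers (Fisher's exact test p = 0.01522, adjusted p = 0.187). Its scaled pileup ranged from 0.884 to 4.54 in STAT5_High, and the 2 STAT5_Low livers had 0.776 and 0.943. STAT5_High replicates 3 and 5, both of collection G92, had 3.27 and 4.54. The other STAT5_High livers with a peak had 0.884 to 1.45. The STAT5_High liver without a peak was replicate 4. In the pooled lists the site had a scaled pileup of 1.58 in STAT5_High and 0.422 in STAT5_Low, a ratio of 3.75, with fold enrichments of 8.77 and 2.81. This site and Met +83.2 kb are described because they had an unadjusted p below 0.05 and a TTCNNNGAA match, a choice made after their values were seen.

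Igf1r, the gene for the IGF-1 receptor, had 7 sites, and the one present in every liver had the lowest median scaled pileup of the 10 such sites in both classes. The start, at −1.0 kb, had a peak in 5 STAT5_High livers with a scaled pileup of 0.651 to 1.03 and in 10 STAT5_Low livers with 0.553 to 1.01. The site at +167.0 kb, in an intron (chr7:75264531-75265128), was present in every liver. Its scaled pileup was 0.963 in the lowest, 1.62 at the median and 2.51 in the highest STAT5_High liver, and 0.962, 1.62 and 3.07 in STAT5_Low, with a log2 difference of −0.09 (SE 0.219, limma adjusted p = 0.828). It turned to 0.03 when each liver was centred on its median region and to 0.02 without STAT5_High replicate 4. Although low in pileup, the site had fold enrichments of 5.93 to 12.6 in STAT5_High and 5.56 to 12.9 in STAT5_Low. At +176.4 kb a peak was present in 4 STAT5_High and 8 STAT5_Low livers (Fisher's exact test p = 0.321, adjusted p = 0.673).

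Met, the gene for the hepatocyte growth factor receptor, had 3 sites present in every liver. At the start (+0.1 kb) the scaled pileup was 1.41 to 3.91 (median 2.66) in STAT5_High and 2.05 to 4.46 (median 3.14) in STAT5_Low, with a log2 difference of −0.35 (SE 0.224, limma adjusted p = 0.487). At +27.9 kb, in a coding exon, it was 1.03 to 4.08 (median 2.88) and 2.38 to 5.01 (median 3.05), with a log2 difference of −0.30 (SE 0.23, limma adjusted p = 0.537), which was −0.11 without STAT5_High replicate 4. The classes overlapped at both. The strongest Met site lay in an intron near the end of the gene, at +105.1 kb (chr6:17518357-17519272). Its scaled pileup was 3.34 in the lowest, 4.56 at the median and 11.1 in the highest STAT5_High liver, and 2.74, 3.52 and 5.31 in STAT5_Low. The classes overlapped (log2 0.40, SE 0.221, limma adjusted p = 0.436), and this was the one site besides Egfr −9.7 kb with a difference above 0 in all 3 collections. Without STAT5_High replicate 5, the highest liver, the difference was 0.23. Its fold enrichment, 11 to 19.7 in STAT5_High and 9.35 to 12.3 in STAT5_Low, had the highest median of the 10 sites in both classes.

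A further 4 Met sites, at +5.4, +22.2, +78.0 and +85.2 kb, had a peak in 14 to 17 livers. Their log2 differences ran from −0.27 to 0.26 and none was called (smallest limma adjusted p = 0.596). The Met site with the smallest p for presence, +14.6 kb (chr6:17427992-17428741), leaned the other way, with a peak in 1 STAT5_High and 7 STAT5_Low livers (Fisher's exact test p = 0.02482, adjusted p = 0.254). Its scaled pileup where called was 0.684 to 1.26 in STAT5_Low and 0.773 in the STAT5_High liver. Met +83.2 kb (chr6:17496708-17497195) has its summit in a coding exon, 16 bp from the start of an annotated Met transcript. It had a peak in 5 STAT5_High livers with a scaled pileup of 0.776 to 1.71 and in 1 STAT5_Low liver with 0.884 (Fisher's exact test p = 0.04299, adjusted p = 0.305).

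Fgfr4 had 4 sites, with the strongest at its start, +0.4 kb (chr13:55253790-55254990). There the scaled pileup was 1.22 in the lowest, 3.89 at the median and 8.47 in the highest STAT5_High liver, and 3.38, 4.80 and 7.02 in STAT5_Low. It ranked first of the 10 sites in STAT5_Low and 4 of 10 in STAT5_High. The classes overlapped, with the lowest STAT5_High value again in replicate 4 (log2 −0.41, SE 0.243, limma adjusted p = 0.46). Without that liver the difference was −0.19. In the test of regions with a peak in 14 or more livers, +2.1 kb had a log2 difference of −0.52 (SE 0.239, limma adjusted p = 0.326) and +19.3 kb one of −0.50 (SE 0.214, limma adjusted p = 0.283). At +11.2 kb a peak was present in 1 STAT5_High and 4 STAT5_Low livers (Fisher's exact test p = 0.314, adjusted p = 0.673).

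**Figure D3:**
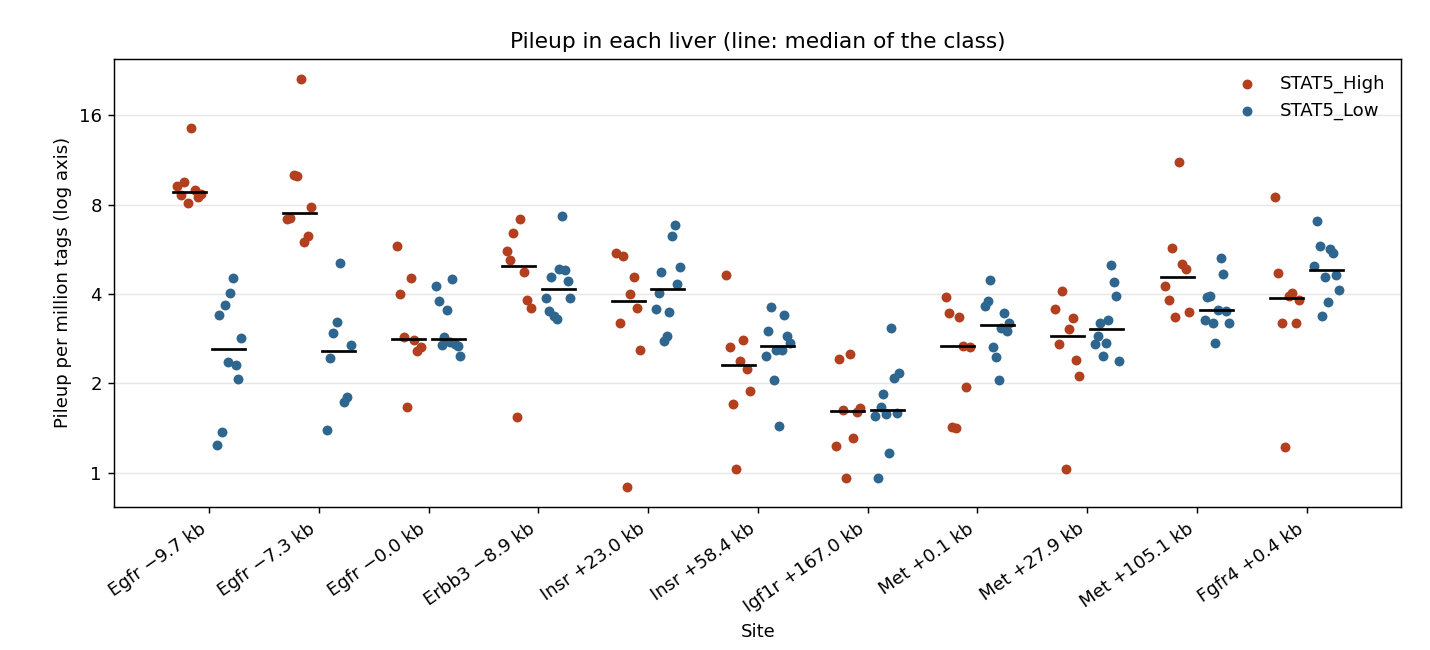
Scaled pileup (tags per 1000000, log axis) of each liver at the 10 sites with a peak in all 18 livers and at Egfr −7.3 kb, where 2 STAT5_Low livers have none; the black line is the class median. STAT5_High points lie above all STAT5_Low points at the 2 upstream Egfr sites, and the classes overlap at the other 9.

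Across the 9 sites other than Egfr −9.7 kb, the sign of the difference was not the same in all collections at 8. In G74A all 9 were above 0, in G92 1 was and in G99 2 were. The smallest limma adjusted p among these within-collection values was 0.138. With each liver centred on its median region, 5 of the 10 sites had a difference above 0, against 3 in the main test.

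**Figure D4:**
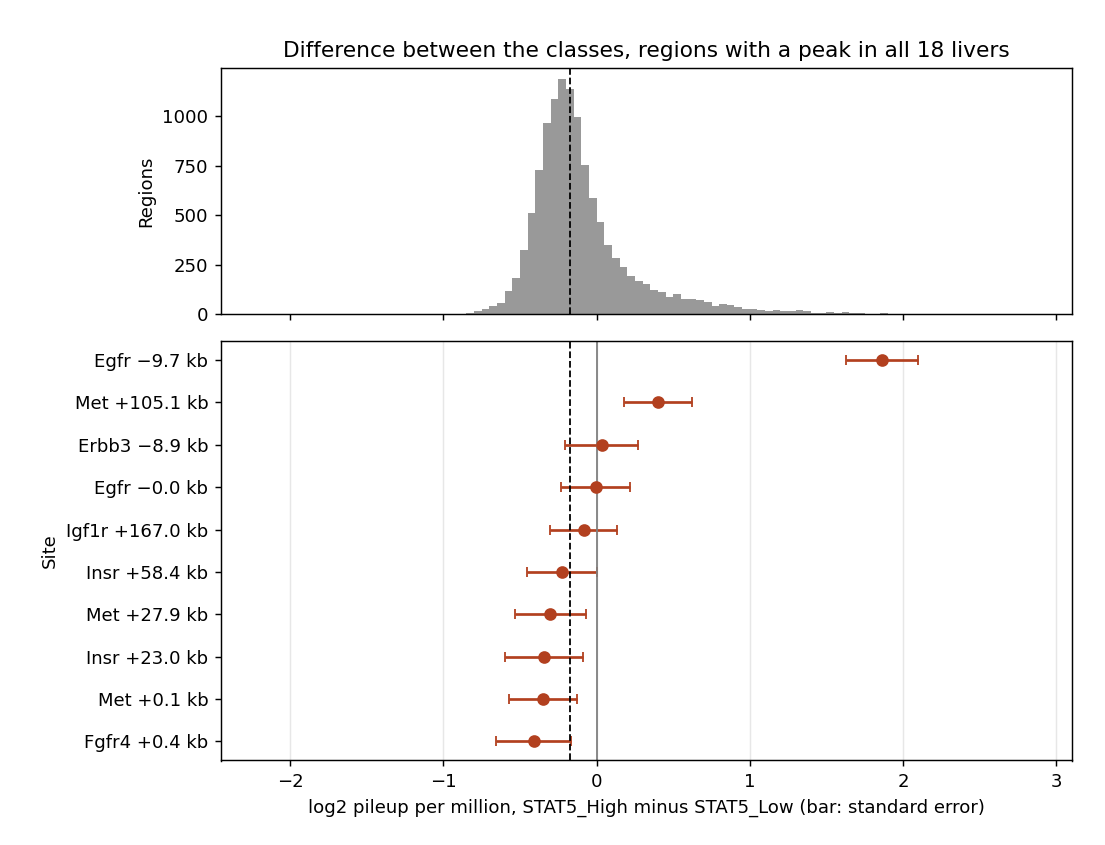
Upper panel: number of regions by log2 difference in scaled pileup (STAT5_High minus STAT5_Low), for the 11748 regions with a peak in all 18 livers; the dashed line is their median, −0.17. Lower panel: the 10 member sites with standard errors. Egfr −9.7 kb, at 1.86, stands in the right tail, and the other 9 lie between −0.41 and 0.40.

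The pooled lists, 1 per class with 128.7 and 184.7 M tags and so without replicates, gave a ratio of scaled pileup at 62 sites. The median ratio of STAT5_High to STAT5_Low was 1.00, and over 55839 regions it was 0.89. All 13 Egfr sites in both pooled lists had a ratio above 1, from 1.06 to 4.25 with a median of 1.45. Of these, +1.2 kb and +1.6 kb share a pooled peak. A ratio needs a peak in both lists. The Egfr sites at +96.8, +166.5, +167.0 and +168.7 kb had one in the pooled STAT5_Low list alone. The site at +74.8 kb had one in the pooled STAT5_High list alone. The share of all regions with a ratio above 1 was not counted. All 4 Fgfr4 sites had a ratio below 1, from 0.65 to 0.819, as had the 5 Igf1r sites in both lists, from 0.795 to 0.998. A ratio below 1 is common, as the median of all regions was 0.89. The Igf1r median, 0.938, lay above that value and the Fgfr4 median, 0.693, below it. Insr had 10 above and 8 below, and Met 8 and 10. Of the 4 Erbb3 sites 1 was above 1, and the 3 near its start share a pooled STAT5_Low peak. Ratios above 1.5 were found at 8 sites, the highest being Egfr −7.3 kb at 4.25, Insr +9.2 kb at 3.75, Egfr −9.7 kb at 3.51 and Egfr +22.9 kb at 3.28. Over all regions 7.09% had such a ratio. At 5 sites STAT5_Low was more than 1.5 times STAT5_High, as in 7.87% of all regions. Their ratios of STAT5_High to STAT5_Low were 0.532 at Erbb3 +0.8 kb, 0.555 at Met +14.6 kb, 0.65 at Fgfr4 +2.1 kb, 0.653 at Fgfr4 +19.3 kb and 0.664 at Met +78.0 kb. The ratio at Erbb3 +0.8 kb is taken against the shared STAT5_Low peak, whose highest point may lie at another site. In the livers with a peak at Erbb3 +0.8 kb, the mean scaled pileup was 1.48 in STAT5_High and 1.82 in STAT5_Low.

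**Figure D5:**
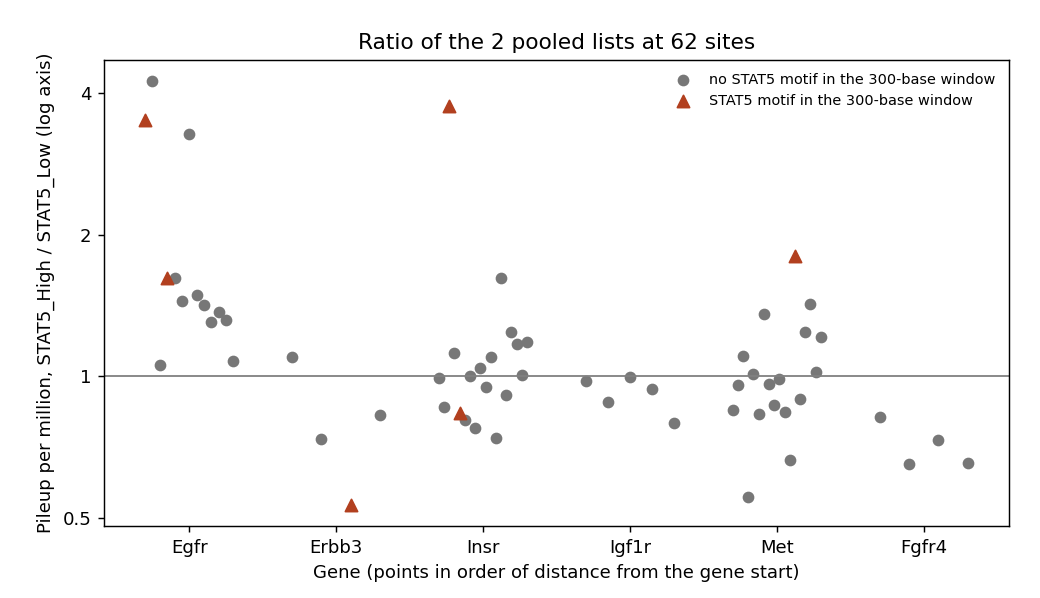
Ratio of scaled pileup in the pooled STAT5_High list to that in the pooled STAT5_Low list (log axis) at 62 sites, by gene; triangles are sites with the STAT5 motif in the 300-base window around the summit. All 13 Egfr points lie above 1 and all 4 Fgfr4 points below it. Sites with a peak in only 1 of the pooled lists have no point. The median ratio over all regions was 0.89. Of the 6 triangles, 4 lie above 1.5 and 2 below 1. The triangles of Egfr +1.2 kb and Erbb3 +0.8 kb rest on pooled peaks shared with other sites.

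The pattern TTCNNNGAA, which reads the same on both strands, was found in the 300-base window of 6 of the 71 sites, 8.45%, and of 12.2% of all regions. Egfr −9.7 kb had 2 matches, TTCCATGAA at −121 bases from the summit and TTCCAGGAA at 47 bases from it. Of the 11748 regions tested for pileup, 11.1% had a match and 0.851% had at least 2, and of the 453 higher in STAT5_High 55.4% had a match and 8.39% had at least 2. The other sites with a match were Egfr +1.2 kb, Erbb3 +0.8 kb, Insr +23.0 kb, Insr +9.2 kb and Met +83.2 kb, and the pooled ratio was above 1.5 at 3 of these and below 1 at Erbb3 +0.8 kb and Insr +23.0 kb. The ratios at Egfr +1.2 kb and Erbb3 +0.8 kb rest on pooled peaks shared with other sites. FOXA letters (TGTTTAC on either strand) were in 8 windows, 11.3% against 7.44% of all regions. C/EBP letters (TTGCNNAA on either strand) were in 17, 23.9% against 19.2%. HNF4A letters (CAAAGTCCA on either strand) were in 1, 1.41% against 1.88%, and CTCF letters (AGGGGGC on either strand) in 2, 2.82% against 6.93%. These matches are descriptions of the reference sequence and not measured binding.

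Other genes of the pathway were counted from lists, with sites taken by the same distance rule. The lists were written with earlier results of these data known. Their counts of calls are therefore descriptions, and cannot show that a list differs from all regions. Among 16 ligand genes, 14 sites were tested for pileup, 2 were higher and 0 lower, and 26 were tested for presence, 2 of them called as more often present in STAT5_High. All 4 calls lay at Igf1, the gene for IGF-1. A site there (chr10:87368833-87370047) had a mean scaled pileup of 14.2 in STAT5_High and 6.78 in STAT5_Low (log2 1.04, SE 0.211, limma adjusted p = 0.000556). Among 17 genes for other receptors and co-receptors, 31 sites were tested for pileup and 2 were higher, at Klb, the co-receptor of FGFR4 (log2 0.87, SE 0.212, limma adjusted p = 0.00578), and at Fgfr2 (log2 0.88, SE 0.252, limma adjusted p = 0.0285). None of the 49 tested for presence was called.

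Among 12 adaptor and substrate genes, 18 sites were tested for pileup and 2 were higher. They lay at Irs1, the docking protein of the insulin and IGF-1 receptors (mean scaled pileup 6.84 and 2.83, log2 1.31, SE 0.228, limma adjusted p = 5.04e-05), and at Grb10, an adaptor that restrains both receptors (mean scaled pileup 11.5 and 3.82, log2 1.55, SE 0.234, limma adjusted p = 4.088e-06). A further Grb10 site had a peak in 8 STAT5_High livers and 1 STAT5_Low liver (Fisher's exact test adjusted p = 0.037). Among 10 genes for negative regulators, 21 sites were tested for pileup and 2 were higher. They lay at Socs2, which damps growth hormone signalling (mean scaled pileup 7.39 and 2.78, log2 1.39, SE 0.224, limma adjusted p = 1.287e-05), and at Ptpn1, which dephosphorylates the insulin receptor (mean scaled pileup 7.92 and 2.66, log2 1.28, SE 0.276, limma adjusted p = 0.00134). No site on these lists was called lower. Over all regions, 3.86% were called higher for pileup, 0.238% lower, and 1.11% in either direction for presence. The median log2 difference was 0.22 for ligands, −0.13 for other receptors, −0.15 for adaptors and 0.02 for negative regulators, beside −0.17 for all regions.

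To describe which genes resembled each receptor over the 18 livers, the mean centred log2 pileup of its sites present in every liver was set against that of 864 genes with at least 3 such sites (863 for Met). The value of a receptor rests on 1 site for Erbb3, Igf1r and Fgfr4, on 2 for Egfr and Insr and on 3 for Met. By Spearman correlation, Egfr was closest to Vmp1 (0.93), C3 (0.92) and Gpr108 (0.92). The closest gene to Fgfr4 was Smarcc2 (0.88), to Met Mustn1 (0.80), to Igf1r Fancc (0.78), to Insr Eef2 (0.77) and to Erbb3 Epb4.1l4b (0.71). These are the highest of many correlations over the same livers, and livers share depth and class, so they are descriptions. Among the 10 sites, Egfr −9.7 kb and Met +105.1 kb had the highest rank correlation of scaled pileup over the 18 livers (0.76), and Egfr −9.7 kb and Fgfr4 +0.4 kb the lowest (−0.71).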

How the data were processed

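DNase-seq libraries of individual livers were prepared from size-selected fragments, per the labels' protocols. The authors mapped the tags to mm9 with Bowtie2, per the submitters' processing notes, and called peaks in each liver and in the pooled tags of each class with MACS2 2.1.0.20150731 without a control library, with all duplicates kept, a shift of -100 bp, an extension of 200 bp and a q-value cutoff of 0.05, per the file headers. The deposited lists give, per peak, a pileup (signal, not scaled to depth), a fold enrichment (ratio to local background in the same library) and a −log10 q-value; these are the authors' values.

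Peaks were merged as described, and scaled pileup is the largest pileup in a region per 1000000 header tags, with no pseudocount. Presence was tested with two-sided Fisher's exact tests over regions with a peak in 5 to 13 livers, pileup with limma 3.58.1 in R 4.3.3 (empirical Bayes with a trend, no covariates), each adjusted over all regions tested. Both were also run on simulated data with planted differences. The simulated livers were drawn independently, so effects shared within a collection were not covered. Absence of a peak means no call at that depth, and the filter to regions with a peak in all livers leaves out sites lost from a class. Duplicate tags are not independent molecules. Sites described singly were, per gene, the start, the site of highest median pileup, the site of smallest Fisher p, the sites of the 2 smallest limma p-values and every site called. The members, lists and tests were chosen with earlier results of these data known. Markers were checked for a peak within 1 kb of a start. Alternatives tried were leaving out each liver, stricter peaks (−log10 q of at least 5), equal list lengths, other overlap and occupancy rules, other scalings, a pseudocount, collection and replicate-number terms and other fits. The sequence of 1 site is not reported here.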

Additional observations from a re-analysis of the deposited data

Results flagged for a closer look

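Over the 10 sites with a peak in every liver, scaled pileup and fold enrichment were looked at in each class, 40 groups in all, and in 4 a single liver stood far from the rest of its class. Chance alone sets apart about 1 in 20 such groups. At Egfr −9.7 kb, STAT5_High replicate 5 had a scaled pileup of 14.4, and the next STAT5_High liver had 9.53. The same liver had 11.1 at Met +105.1 kb, with 5.72 next. At Erbb3 −8.9 kb, STAT5_Low replicate 7 had 7.31, with 4.87 next. At the start of Egfr, STAT5_Low replicate 1 had a fold enrichment of 8.56, with 6.80 next.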

How the results depend on the processing

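Of 112 alternative values, for the numbers of member sites called and for the differences in fold enrichment of the 10 sites (median in place of mean), 109 stayed within the limits set (1.5 times for a number, 1 SD for a difference). Leaving out each liver gave 0 to 1 sites called higher for presence, the 1 being Insr +52.0 kb without STAT5_High replicate 1 or STAT5_Low replicate 8, and testing regions with a peak in 14 or more livers gave 2 called higher for pileup, the added site being Egfr −7.3 kb. Egfr −9.7 kb kept its call under all 27 alternatives (log2 1.51 to 1.98). With the median in place of the mean, 3 of these differences in fold enrichment changed sign, from −0.506 to 0.553 at Insr +23.0 kb, −0.399 to 0.189 at Met +27.9 kb and −0.205 to 0.133 at Fgfr4 +0.4 kb. The other values that changed sign were differences in presence or pileup at sites that were not called, and the cause was not tested: Erbb3 +0.8 kb, −37.5 percentage points of livers with peaks of −log10 q of 5 or more and −4.2 to 11.4 leaving out a liver; the Egfr start, 0.107 centred, 0.087 with collection as a covariate, 0.007 with a pseudocount of 1 and −0.133 to 0.123 leaving out a liver; Erbb3 −8.9 kb, −0.008 with collection, −0.156 undivided and −0.069 to 0.247 leaving out a liver; Insr +58.4 kb, 0.133 summed; Igf1r +167.0 kb, 0.028 centred and −0.18 to 0.018 leaving out a liver. Over all regions, calls for presence were 454 higher and 40 lower with lists of equal length and 47 and 1 with all regions of 1 to 17 livers tested, against 153 and 21, and leaving out a liver gave 156 to 251 higher (251 without STAT5_High replicate 4) and 22 to 43 lower (43 without STAT5_High replicate 1 or STAT5_Low replicate 6). Calls for pileup were 191 higher and 4 lower among regions above the median level, and 864 and 145 when centred, with a shift of the median of all regions from −0.174 to −0.06. Replicate numbers do not pair the livers. Correlations between same-numbered livers were 0.37 to 0.378 for replicates 1, 2 and 8, whose livers share a collection. They were −0.158 to 0.184 for the other numbers, whose livers do not. A replicate block in limma gave 526 higher and 105 lower regions, 1 member site, and log2 1.84 at Egfr −9.7 kb. Depth limits presence: a site absent from 1 list may lie below the calling threshold there, as 22 pooled STAT5_Low peaks and 13 pooled STAT5_High peaks at the 6 genes were in no per-liver list.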
